A study of Rattus norvegicus with 6 samples.

Results

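The cytosolic ribosomal protein genes are the genes for the proteins of the large (60S) and small (40S) subunits of the ribosome outside mitochondria. Members were the probes whose RefSeq accession leads to a gene symbol beginning with Rpl or Rps and a digit, or to Rpsa, Rplp0, Rplp1 or Rplp2, with the kinases named Rps6k left out. This gave 76 genes on 78 probes, out of 13876 named genes with a usable signal. Of the 76, 74 genes passed the filter on dim signal and were tested, among 11001 named genes. Rpl11, which binds 5S rRNA together with Rpl5, and Rpl27l2 were not well above background on any of the 6 arrays and have no value here.

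Heart muscle of male Wistar rats was measured on 1-colour Agilent arrays. The 3 border-zone samples (M17, M24 and M25) came from rats whose left anterior descending coronary artery had been tied 6 h earlier, and the border zone was found by a double stain with TTC and EB. The 3 sham samples (C4, C5 and C6) came from sham-operated rats, 6 h after the operation, from what the labels call the control zone. Both groups are of the same sex and strain, no transgene or drug is named, and ages are not given here. The comparison asks how transcript levels in the border zone differed from those in sham-operated muscle.

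Each ribosome carries a single copy of most of these proteins, so cells make them in matched amounts, and surplus protein is degraded. Many of their mRNAs begin with a run of pyrimidines, the 5′ terminal oligopyrimidine (TOP) motif, through which mTOR and the RNA-binding protein LARP1 control their translation. When ribosome assembly is disturbed, free Rpl5 and Rpl11 bind MDM2 and stabilise p53. In heart muscle, ribosome number is a known determinant of the protein synthesis that growth under load requires.

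Some arrays stood apart. The file headers place M17, M24, M25 and C4 in scan 1, C5 in scan 2 and C6 in scan 3. The share of probes well above background was 74.3%, 77.3% and 78.3% on M17, M24 and M25, against 73.7% on C4, 50.9% on C5 and 52.4% on C6. Markers of central nervous tissue (8 measured, of which Syt1 was not well above background on any array) read highest on C5 and C6 in 8 of 8 cases. Their summed signal on the log2 scale was 0.35 to 0.68 in the border zone, 1.05 on C4, 3.59 on C5 and 3.92 on C6. The 8 cardiomyocyte markers were well above background on all 6 arrays, with a log2 summed signal of 9.07 to 9.27 in the border zone and 9.19 to 9.57 in sham. Neutrophil markers (4 measured) summed to 2.05 to 2.21 in the border zone and -3.18 to -2.03 in sham. All 4 were well above background on each border-zone array, but 3 on C4 and 1 each on C5 and C6. The sham sums are therefore partly background, and the size of that gap is uncertain. M17 and M24 differed more than 2-fold on 572 probes, and on 558 of these (97.6%) the value of M25 fell between theirs. The design text gives 3 rats per group, but it could not be settled that M25 is an animal of its own, so n counts arrays and p-values measure the spread between arrays.

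Ribosomal protein transcripts stood higher in the border zone as a group, by a small amount. The median log2 fold change of the 74 genes, border zone minus sham, was 0.43, which is 1.35-fold, with quartiles of 0.26 and 0.64, while the median of all 17930 probes tested was -0.026. The estimate was positive for 71 of the 74 genes (65 to 74 under the other scalings and background corrections), against 48.1% of all probes. All 3 border-zone arrays lay above all 3 sham arrays for 58 of the 74 genes (78.4%), against 20.9% of all probes. In limma, with Benjamini-Hochberg adjustment over all probes and a threshold of adjusted p below 0.05, 17 of the 74 genes rose (23.0%), against 9.01% of all probes. None fell, against 10.3% of all probes. At an unadjusted p below 0.05 there were 49 genes with a positive estimate and 0 with a negative one. The share of all probes at that unadjusted threshold was not counted. The remaining 57 did not pass. In bulk tissue, a change in the mix of cells and a change in RNA per cell cannot be told apart.

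The group difference was visible on each array. The median signal of the 74 genes, as log2 signal relative to the 75th percentile of the array, was 5.56, 5.60 and 5.55 on M17, M24 and M25, against 5.26, 4.93 and 5.03 on C4, C5 and C6. The SD was 0.027 over the border-zone arrays and 0.17 over the sham arrays, of which C4 was the highest. A share of the summed signal needs no scaling between arrays. All 78 probes of the 76 genes, tested or not, made up 6.04%, 6.19% and 6.08% of the summed signal of all probes in the border zone. In sham they made up 5.44%, 4.83% and 4.96%. Means were 6.10% ± 0.075 in the border zone and 5.08% ± 0.32 in sham (SD, n = 3 each), with no overlap.

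**Figure D1:**
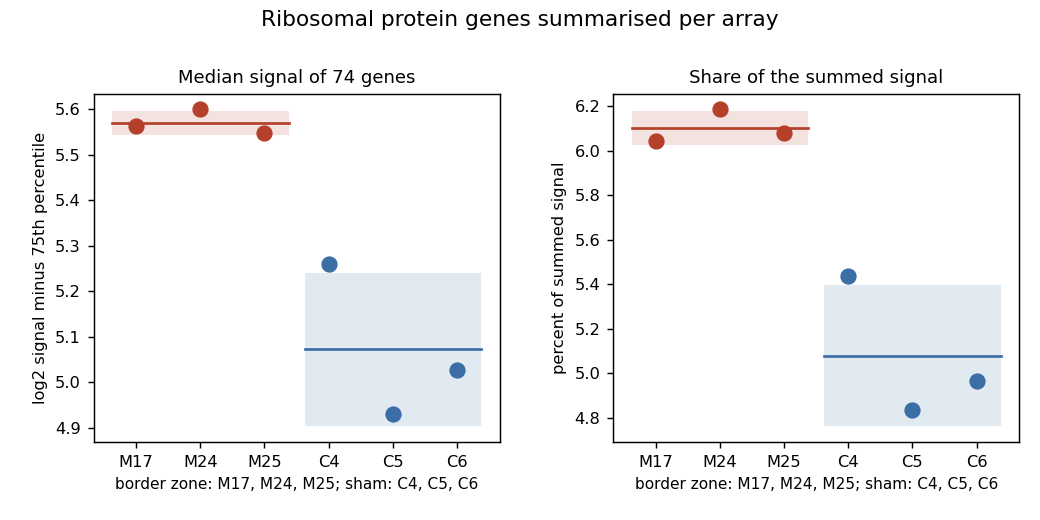
The left panel plots the median log2 signal of the 74 ribosomal protein genes on each array relative to that array's 75th percentile. The right panel plots the share of the summed signal, in percent, of all 78 probes of the 76 genes. Points are arrays, lines are group means and bands are 1 SD (n = 3). Both axes are cut to the range of the data, the 3 border-zone arrays lie above all 3 sham arrays in both panels, and C4 is the sham array nearest to them.

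How many genes passed rested on single arrays, while the median did not. Leaving out M25 left 0 of the 74 genes past the threshold, against 1.6% of all probes. In that limma fit 26 genes had a positive estimate at an unadjusted p below 0.05, where the share of all probes was not counted. Leaving out M17 left 2 (2.70%, against 3.90% of all probes) and leaving out M24 left 1 (1.35%, against 3.05%). Leaving out C5 left 2 (2.70%, against 3.69%) and leaving out C6 left 8 (10.8%, against 6.64%). Without M17, M24, M25 or C5 the members were thus called no more often than probes in general. Without C4, 47 of the 74 rose, against 20.8% of all probes. The median log2 fold change stayed between 0.37 and 0.49 over these 6 fits. With scan as a block the comparison becomes the border zone against C4 alone, with a spread taken from the border-zone arrays only. There the median was 0.27, 72 of 74 estimates were positive, and 9 genes rose (12.2%), against 8.43% of all probes, of which 7 were among the 17. C4 lay above both C5 and C6 for 45 of the 74 genes and below both for 15, which was not counted over all probes. The median of C4 minus the mean of C5 and C6 was 0.17 for the 74 genes and -0.011 for all probes tested. The part of the nervous tissue and neutrophil markers, and of signal quality on C5 and C6, in the sizes of the changes was not tested.

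Scaling between arrays also moved the count. After quantile scaling 6 of the 74 genes rose, 8.11% against 8.39% of all probes, and in the authors' own table of values 7 rose, 9.46% against 9.56%. At those settings the share of members called was therefore no higher than the background. The estimates at both were nearly the same, with a median of 0.30 for the 74 genes and 0.69 for Rpl4, so they overlap as alternatives. The median of the 74 genes nevertheless lay above that of all probes under each scaling and background correction tried, by 0.20 after quantile scaling, 0.27 after cyclic loess, 0.46 with the 75th percentile or the array median, and 0.90 after normexp. Those settings moved the median of all probes itself, to 0.16 with the array median and to -0.35 after normexp.

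**Figure D2:**
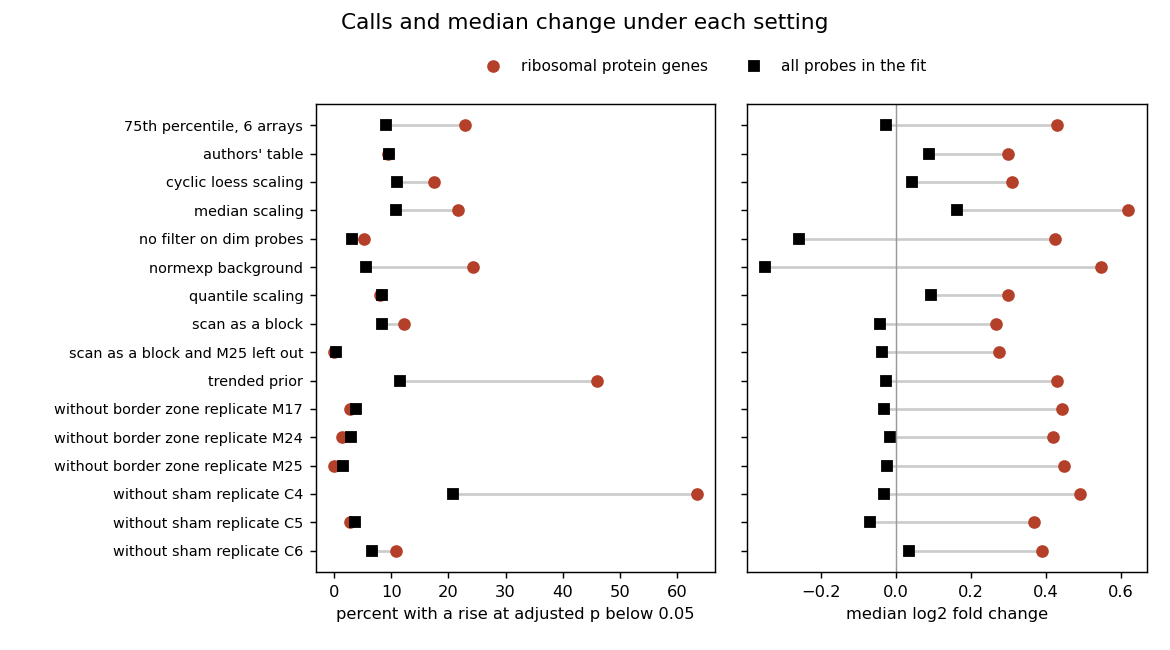
For each setting named on the left, the left panel plots the percentage with a rise at adjusted p below 0.05 in limma and the right panel the median log2 fold change, for the ribosomal protein genes (circles) and for all probes in the same fit (squares). The circles spread from 0 to 63.5% on the left, while on the right they stay between 0.27 and 0.62, to the right of the square at each setting.

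Of the 60S genes, 45 were tested, 12 rose (26.7%, against 9.01% of all probes), 0 fell (against 10.3%) and 33 did not pass. Their median log2 fold change was 0.38, with a range of -0.16 to 1.20. Of the 40S genes, 29 were tested, 5 rose (17.2%), 0 fell and 24 did not pass, with a median of 0.44 and a highest estimate of 1.25. The border-zone arrays lay above all sham arrays for 34 of the 45 60S genes (75.6%) and 24 of the 29 40S genes (82.8%), against 20.9% of all probes. C4 lay above both C5 and C6 for 22 of the 60S genes and for 23 of the 40S genes, which was not counted over all probes. The difference between the subunits was not tested.

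Agreement among the border-zone arrays was close. The median SD of a ribosomal protein gene over M17, M24 and M25 was 0.046 on the log2 scale, against 0.182 over the sham arrays. Over all probes the median SD was 0.122 in the border zone and 0.274 in sham. Of the 74 genes, 60 had a mean log2 signal above 4, and SDs were not compared between probes of like signal. Since it is not settled that M25 is an animal of its own, the border-zone SD may understate the spread between animals. M17 and M24 differed by a median of 0.076 for the 74 genes.

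**Figure D3:**
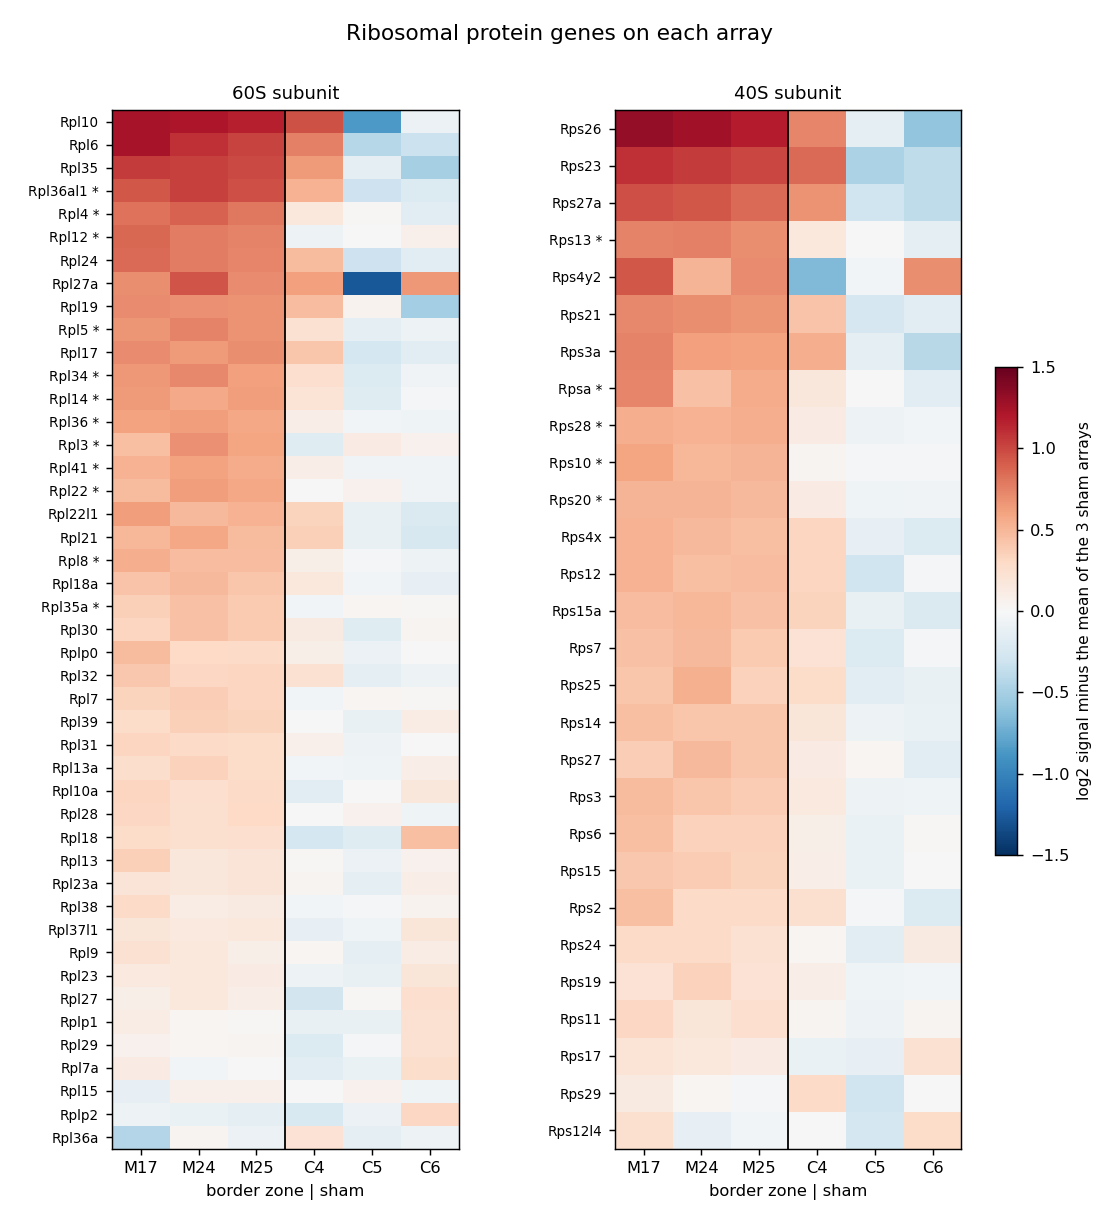
Each row is a ribosomal protein gene named here, ordered by log2 fold change within its subunit, and each column an array; colour gives the log2 signal minus the mean of the 3 sham arrays, and an asterisk marks the 17 genes with an adjusted p below 0.05. The border-zone columns look alike down the page, while C4 is warmer than C5 and C6 in the top rows (Rpl10, Rpl6, Rps26, Rps23).

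Among the 60S proteins, Rpl12, which sits at the base of the stalk that recruits elongation factors, had the smallest p of the 74. Its level was 4.61, 4.51 and 4.50 on M17, M24 and M25, against 3.68, 3.74 and 3.83 on C4, C5 and C6. The groups did not overlap and C4 was the lowest sham array. Rpl12 rose by a log2 fold change of 0.79 ± 0.11 (SE; limma adjusted p = 0.00815), with 0.87 against C4 alone. It passed in 5 of the 6 fits that left out an array, the exception being the one without M25 (adjusted p = 0.0705).

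Rpl4 is a core protein whose extended loop lines the exit tunnel of the nascent chain. It measured 4.46, 4.52 and 4.43 in the border zone, against 3.79, 3.66 and 3.47 in sham. The lowest border-zone array lay well above the highest sham array, C4. Rpl4 rose by 0.83 ± 0.13 (limma adjusted p = 0.0111) and passed in 4 of the 6 fits with an array left out. Rpl3, a core protein close to the peptidyl transferase centre, measured 4.42, 4.66 and 4.56 in the border zone, against 3.79, 4.10 and 4.03 in sham. C4 was again lowest, and Rpl3 rose by 0.58 ± 0.14 (limma adjusted p = 0.0364), with 0.76 against C4.

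Rpl5, the partner of Rpl11 on 5S rRNA, measured 5.24, 5.32 and 5.25 in the border zone, against 4.80, 4.43 and 4.50 in sham. C4 stood between the border zone and the other sham arrays. Rpl5 rose by 0.69 ± 0.14 (limma adjusted p = 0.0229), with 0.47 against C4 alone (adjusted p = 0.0531, scan as a block).

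Rpl36al1, the locus with the largest rise among those that passed, measured 4.18, 4.28 and 4.22 in the border zone, against 3.77, 2.94 and 3.05 in sham. C4 lay 0.78 above the mean of C5 and C6, and the rise of 0.98 ± 0.24 (limma adjusted p = 0.039) was 0.46 against C4 alone. Rpl34, Rpl14 and Rpl36, further structural proteins of the large subunit, rose by 0.66, 0.61 and 0.61 (limma adjusted p = 0.0321, 0.0305 and 0.0166). Rpl41, a very short peptide, and Rpl22, an RNA-binding protein on the outer face of the subunit, each rose by 0.56 (limma adjusted p = 0.0211 and 0.021). Rpl8, near the peptidyl transferase centre, and Rpl35a, a Diamond-Blackfan anaemia gene in humans, had the smallest rises on the 60S side, 0.49 and 0.40 (limma adjusted p = 0.0301 and 0.0429).

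Among the 40S proteins, Rps13, which takes part in a contact between the subunits, measured 3.87, 3.88 and 3.83 in the border zone, against 3.28, 3.12 and 2.98 in sham. The border-zone arrays differed from each other far less than they did from any sham array. Rps13 rose by 0.73 ± 0.12 (limma adjusted p = 0.014), with 0.58 against C4 alone. Rpsa, which carries the name laminin receptor as well and is needed for 40S assembly, measured 2.04, 1.75 and 1.86 in the border zone, against 1.48, 1.31 and 1.14 in sham. M17 was highest, the groups did not overlap, and Rpsa rose by 0.57 ± 0.14 (limma adjusted p = 0.0425). Rps10 and Rps20, both ubiquitylated when ribosomes collide, rose by 0.53 and 0.50 (limma adjusted p = 0.0206 and 0.0288), and Rps28 rose by 0.54 (adjusted p = 0.025).

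Rps10 shows how narrow some of these groups were: it measured 2.55, 2.46 and 2.47 in the border zone, against 2.0, 1.94 and 1.94 in sham. C4 did not stand apart for this gene, and the value against C4 was 0.49 (adjusted p = 0.04995, scan as a block).

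The largest estimates belonged to genes that did not pass. Only 5 genes had an estimate of 2-fold or more, Rps26, Rpl10, Rpl6, Rps23 and Rpl35, named here after their values were seen. Rps26, in the exit channel for mRNA, measured 4.65, 4.58 and 4.50 in the border zone, against 4.07, 3.19 and 2.73 in sham. The sham arrays spanned more than the distance between the groups, with C4 nearest to the border zone, and the estimate was 1.25 ± 0.34 (limma adjusted p = 0.0517). Rps23, a protein of the decoding centre, measured 5.17, 5.12 and 5.07 in the border zone, against 4.93, 3.59 and 3.70 in sham. C4 almost reached the border zone, so that an estimate of 1.05 ± 0.37 (limma adjusted p = 0.0972) became 0.19 against C4 alone. Rpl10, which joins the 60S subunit late in the cytoplasm, measured 1.14, 1.12 and 1.08 in the border zone, against 0.87, -0.95 and -0.18 in sham. C5 was the lowest by far, and the estimate was 1.20 ± 0.44 (limma adjusted p = 0.111), with 0.25 against C4. Rpl6 and Rpl35 had estimates of 1.11 and 1.02 against all sham arrays, and of 0.36 and 0.38 against C4 alone.

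**Figure D4:**
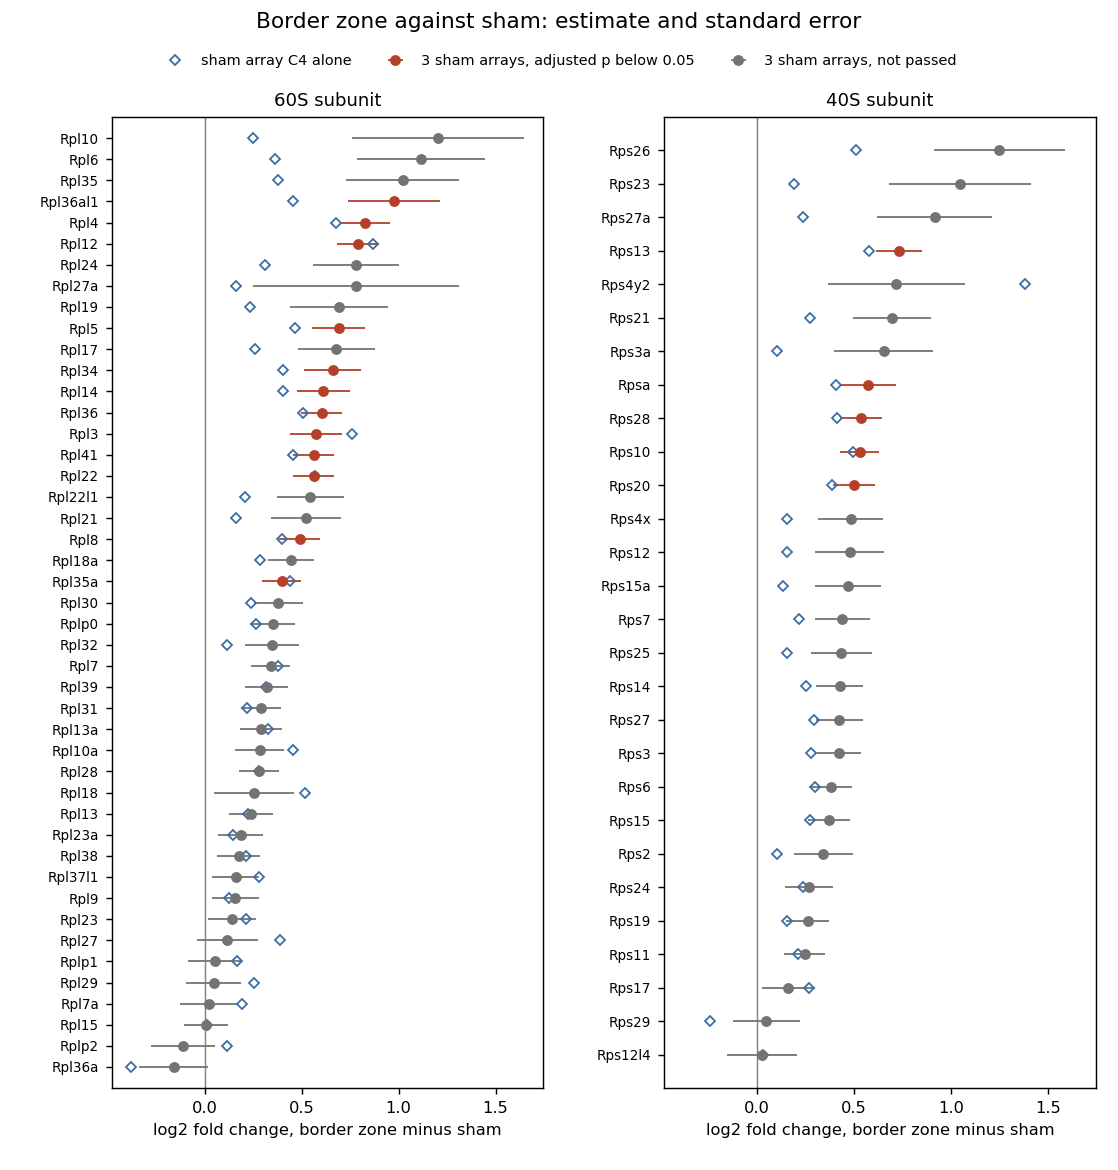
Filled points give the log2 fold change, border zone minus the 3 sham arrays, of each ribosomal protein gene named here with its standard error (red: adjusted p below 0.05 in limma; grey: not passed), and open diamonds the same against sham array C4 alone. The red points are not the largest: Rps26, Rpl10, Rpl6, Rps23 and Rpl35 lie furthest right with wide errors, and their diamonds lie between 0.19 and 0.51.

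The stalk proteins Rplp0, Rplp1 and Rplp2, which contact the translational GTPases, did not pass. Rplp0, the anchor of the stalk, measured 5.90, 5.73 and 5.71 in the border zone, against 5.52, 5.34 and 5.43 in sham, an estimate of 0.35 ± 0.12 (limma adjusted p = 0.0842) without overlap. Rplp1 measured 6.24, 6.16 and 6.15 in the border zone, against 6.02, 6.02 and 6.36 in sham. C6 was the highest of the 6 arrays, and the estimate was 0.05 ± 0.14 (limma adjusted p = 0.805), negative only after cyclic loess among the scalings tried. Rplp2 measured 6.78, 6.75 and 6.70 in the border zone, against 6.62, 6.76 and 7.16 in sham, with C6 again the highest, and its estimate of -0.11 ± 0.17 (limma adjusted p = 0.663) changed sign with the scaling. Rplp1 and Rpl13a are each on 2 probes, which gave 0.05 and 0.07 for Rplp1 and 0.29 and 0.28 for Rpl13a, with no call on any of them.

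Rpl15 and Rps12l4 were among the genes with the highest p. Rpl15, a core protein of the large subunit, measured -0.77, -0.57 and -0.57 in the border zone, against -0.65, -0.58 and -0.71 in sham. The groups overlapped, with M17 the lowest array, and the estimate was 0.01 ± 0.11 (limma adjusted p = 0.966). Rps12l4 had an estimate of 0.03 (limma adjusted p = 0.928). Rps6, the S6 kinase substrate, and Rps19, the gene most often altered in human Diamond-Blackfan anaemia, also did not pass, with estimates of 0.38 (adjusted p = 0.0603) and 0.26 (adjusted p = 0.152).

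Among the tested genes, 71 were well above background on all 6 arrays, and these held the 17 rises, with a median of 0.43. Rpl27a, Rpl36a and Rps12l4 entered the test through the border zone alone, being above background on only some sham arrays, and none of these 3 passed. The signal of a probe depends on its own sequence, so no gene is called more abundant than another here. The RefSeq gene table lists 1140 rat loci with symbols of this kind, 839 of them pseudogenes. Processed copies can share nearly the whole mRNA sequence, and since probe sequences were not used here, a probe may read copies along with the named gene. Among the tested loci, 5 are named as copies (Rpl36al1, Rpl37l1, Rpl22l1, Rps4y2 and Rps12l4), of which 1 rose. Without them, 16 of 69 genes rose and the median was 0.43.

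Paralogue pairs, in which a related gene can stand in for the usual protein, were measured for 2 of 8 pairs looked for. Rpl22l1, the paralogue of Rpl22, measured 0.97, 0.82 and 0.86 in the border zone, against 0.67, 0.22 and 0.12 in sham, an estimate of 0.54 ± 0.17 (limma adjusted p = 0.0785). As a test of unequal change only, since the offset between the 2 probes says nothing of abundance, the log2 difference Rpl22l1 minus Rpl22 within an array averaged -3.59 ± 0.15 in the border zone and -3.57 ± 0.30 in sham (SD, n = 3 each), a change of -0.017 (exact two-sided permutation p = 1, with 0.1 the smallest the design allows). Rps4y2, a relative of the X-linked Rps4x, measured 1.69, 1.26 and 1.47 in the border zone, against 0.09, 0.72 and 1.45 in sham. The groups overlapped at C6, C4 was lowest, and the estimate of 0.72 ± 0.35 (limma adjusted p = 0.199) was 1.38 against C4 alone. Its difference from Rps4x moved by 0.23 (exact two-sided permutation p = 0.8). Both pairs had an adjusted p of 1 over the 2 pairs. The design cannot reach a p below the threshold here. For the other pairs the usual partner was measured for Rpl3 (above), Rps27 (0.42), Rpl39 (0.32), Rpl7 (0.34) and Rpl10 (above), and of these Rpl3 passed.

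Among the brighter genes, size of change ran opposite to probe signal. Of the 74 genes, 60 had a mean log2 signal above 4, that is more than 4 above the 75th percentile of the array. Over these 60 genes signal and log2 fold change ran opposite, with a Spearman rho of -0.79 against all sham arrays and of -0.56 against C4 alone, as a description of probes that share the same 6 arrays. The 15 genes between 4 and 5 had a median of 0.69, the 13 between 5 and 5.5 of 0.48, the 25 between 5.5 and 6 of 0.29 and the 7 above 6 of 0.05. Other probes at those signals had medians of 0.09, 0.08, 0.06 and -0.17. Above 4, the ribosomal protein genes thus had a median of 0.41, and the 647 other probes one of 0.04. Below 4 the medians did not fall with signal. They were 0.31 for the 2 genes below -4 and 0.03 for the 3 between -4 and 0. The 5 genes between 0 and 3 had a median of 0.57, and the 4 between 3 and 4 one of 0.85. No spot was marked as saturated on any array. The part of probe brightness in the sizes of the changes was not tested.

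**Figure D5:**
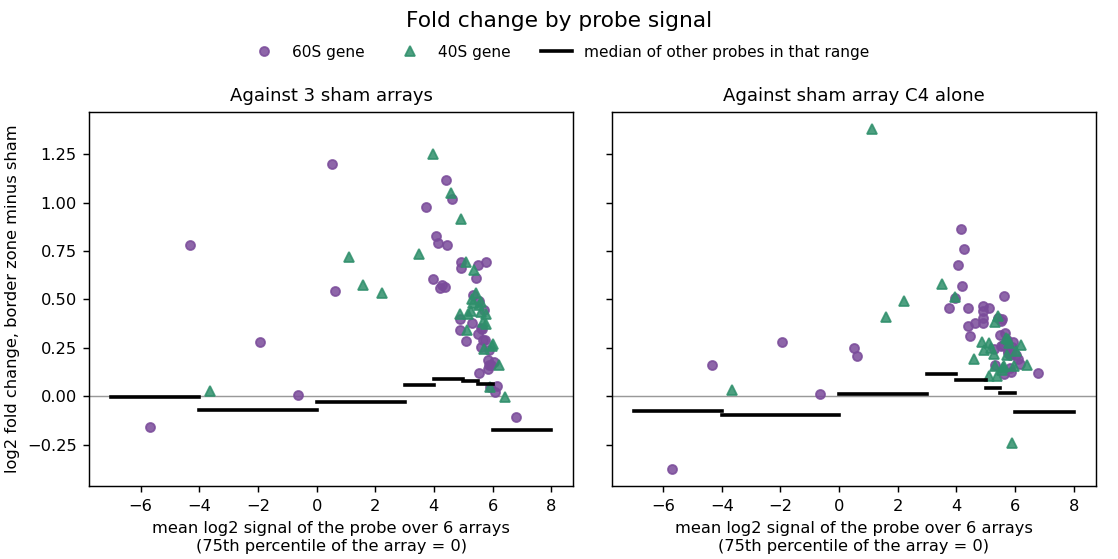
Each point is a ribosomal protein gene, with the mean log2 signal of its probe over the 6 arrays on the horizontal axis (75th percentile of the array = 0) and its log2 fold change on the vertical axis, against the 3 sham arrays (left) or C4 alone (right); black bars are medians of other probes in the same range of signal. Above a signal of 4 the points slope downwards, and most lie above the black bars at the same signal.

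The gene starts were read for the TOP motif, which the choice of genes did not use. RefSeq promoter sequences (build GRCr8) were matched for 61 of the 76 genes. A TOP-like start was taken as a C followed by at least 4 of C or T on the transcribed strand, beginning within 5 bases of the annotated start. It was found for 37 of the 61 genes (60.7%), against 17% of 33469 promoters in the table. The examples below show 10 bases before the start and 20 from it, with the pyrimidine run in capitals from its first C inside that 5-base limit. They were picked to show that genes that rose and genes with almost no change both occur with such a run, and that some genes that rose have none at the annotated start.
Rpl12: aacatccgtCTTTTCggctttcggttcgga
Rpl4: tcttcCTTTTCCTgtgggagcagccgggta
Rpl14: ggccctCTCCCTTCTCgctgagcgccgcca
Rpl5: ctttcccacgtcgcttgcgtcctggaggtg
Rpl3: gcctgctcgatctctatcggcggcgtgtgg
Rps23: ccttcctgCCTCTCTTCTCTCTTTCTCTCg
Rplp1: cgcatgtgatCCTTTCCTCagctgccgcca
Rpl29: tttctCTTTCTCTTCCggtcccaggcgctg

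The windows lie at chr3:36661930-36661959 (plus strand) for Rpl12, chr8:73566467-73566496 (plus) for Rpl4, chr8:129163610-129163639 (plus) for Rpl14, chr14:1995206-1995235 (minus) for Rpl5, chr7:113507971-113508000 (minus) for Rpl3, chr2:23814507-23814536 (plus) for Rps23, chr8:71290853-71290882 (minus) for Rplp1 and chr8:115947633-115947662 (plus) for Rpl29. Counted from the first C within 5 bases of the start, and leaving out any pyrimidines before it, Rpl12, Rpl4 and Rpl14 have runs of 6, 8 and 10 pyrimidines, and they rose. Rpl5 and Rpl3 rose and have no such run there. Rps23, Rplp1 and Rpl29 did not pass, with estimates of 1.05, 0.05 and 0.05, and have runs of 21, 9 and 11.

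A TOP-like start was present for 9 of the 15 genes that rose and have a promoter sequence, and for 28 of the 44 that did not pass. The 37 genes with such a start had a median log2 fold change of 0.53 and the 22 tested genes without one had 0.47. Annotated starts were not checked against measured ones, so a gene without a run there may still have a TOP motif at its true start. A link between the motif and the size of change was not tested. Among other named genes that were tested, the 1510 with a TOP-like start had a median of -0.046 and the 7426 without one of -0.044. Over the 300 bases around the start and on both strands, the ETS core CCGGAAG was found for 27.9% of the 61 genes, against 8.75% of all promoters. The GC box GGGCGG was found for 59.0%, against 33.1%, and AAGATGGC, the core of the YY1 motif, for 8.20%, against 3.17%. TATAAA was found for 11.5%, against 14.2%. A match describes the letters in the window and is not a measured binding site.

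Ribosomal proteins whose symbols fall outside the naming rule did not pass. Rack1, a 40S scaffold for signalling proteins, measured 5.88, 5.83 and 5.86 in the border zone, against 5.59, 5.51 and 5.71 in sham, an estimate of 0.25 ± 0.11 (limma adjusted p = 0.156) without overlap. Fau, which encodes Rps30 joined to a ubiquitin-like sequence, had an estimate of 0.03 (limma adjusted p = 0.899). Of the 3 tested in all, the median was 0.03.

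Of 13 genes listed as elongation factors and other mRNAs with a TOP motif, 5 rose (38.5%, against 9.01% of all probes), 0 fell and the median was 0.53. With scan as a block 3 rose, without Btf3 (adjusted p = 0.0738), and without M25 0 rose in limma. Hnrnpa1, an RNA-binding splicing factor, measured 2.35, 2.61 and 2.47 in the border zone, against 1.44, 0.81 and 0.90 in sham. No array of one group reached the other, and Hnrnpa1 rose by 1.43 ± 0.20 (limma adjusted p = 0.00876), with 1.04 against C4. Eef1b2, the exchange factor of elongation factor 1A, measured 4.82, 4.87 and 4.80 in the border zone, against 3.98, 4.0 and 4.11 in sham. C4 and C5 were nearly equal here, and Eef1b2 rose by 0.80 ± 0.10 (limma adjusted p = 0.00716). Eef1e1, counted in this list though it is a protein of the multisynthetase complex and not an elongation factor, rose by 1.38 (limma adjusted p = 0.0167). Btf3, of the nascent chain-associated complex, rose by 0.71 (limma adjusted p = 0.0364). Eef1a1, Eef2 and Tpt1 did not pass, with estimates of 0.43, 0.66 and -0.10, and Eef1a1 had -0.06 against C4 alone.

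Of 32 translation initiation factors tested, 10 rose (31.2%, against 9.01% of all probes) and 1 fell (3.12%, against 10.3%), with a median of 0.22. The fit with scan as a block called 8 higher and 1 lower, and without M25 1 rose. Eif1a, which acts in scanning for the start codon, measured 2.87, 2.54 and 2.71 in the border zone, against 0.66, -0.08 and -0.24 in sham. It rose by 2.59 ± 0.26 (limma adjusted p = 0.00385) and passed in all 6 fits with an array left out. That estimate is larger than the one for each of the 74 ribosomal protein genes. Eif1ax, its X-linked relative, did not pass, with an estimate of -0.01 (limma adjusted p = 0.954). Eif4a1, the cap-dependent helicase, rose by 1.02 and Eif3e, of the scaffold complex eIF3, by 0.97 (limma adjusted p = 0.0163 and 0.0366), and Eif3e did not pass with scan as a block (adjusted p = 0.0775). Eif4e3, a cap-binding homologue, measured -3.19, -3.34 and -3.28 in the border zone, against -2.56, -2.27 and -2.16 in sham, and fell by 0.94 ± 0.14 on the log2 scale (limma adjusted p = 0.0112).

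Of 27 genes listed for mTOR and LARP1 control, 17 had a named probe and were tested. Larp1 itself was not among them and has no value here. Of the 17, 2 rose (11.8%, against 9.01% of all probes) and 1 fell (5.88%, against 10.3%), with a median of 0.09. The list was thus called about as often as probes in general. With scan as a block 2 rose, Ddit4 and Cnbp, and 1 fell, Pdcd4 (adjusted p = 0.0327, 0.0385 and 0.0391), so only Ddit4 passed in both fits. Without M25 0 rose in limma. Eif4ebp1, a brake on cap binding that mTOR inactivates, measured 4.16, 3.63 and 3.86 in the border zone, against 2.82, 3.04 and 3.28 in sham, and rose by 0.83 ± 0.19 (limma adjusted p = 0.0352), a call lost with scan as a block (adjusted p = 0.0609) and after quantile scaling (adjusted p = 0.0524). Ddit4, an inhibitor of mTOR complex 1 induced by stress, rose by 0.48 (limma adjusted p = 0.0418) and did not pass after quantile scaling (adjusted p = 0.074). Tsc2, also an inhibitor of mTOR complex 1, measured 0.52, 0.15 and 0.28 in the border zone, against 0.93, 1.05 and 0.93 in sham, and fell by 0.65 ± 0.14 on the log2 scale (limma adjusted p = 0.0267). Tsc2 did not pass with scan as a block (adjusted p = 0.0972), after median scaling (-0.46, adjusted p = 0.127) or after normexp (adjusted p = 0.0758).

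Of 10 chaperones and importers of ribosomal proteins, 1 rose (10%, against 9.01% of all probes), 0 fell and the median was 0.25, so the list was called about as often as probes in general. The gene that rose was Grwd1, whose yeast counterpart is a chaperone of Rpl3, by 0.60 ± 0.11 (limma adjusted p = 0.0194), and it did not pass without M25 (adjusted p = 0.123) or after normexp (adjusted p = 0.0932).

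Of 10 genes for ribosome rescue, quality control and hibernation, 4 rose (40%, against 9.01% of all probes) and 1 fell (10%, against 10.3%), with a median of 0.23. With scan as a block 1 rose, Ascc2, and 0 fell, and without M25 0 rose in limma. Ascc2, of the complex that splits collided ribosomes, measured 0.12, 0.28 and 0.21 in the border zone, against -0.74, -1.07 and -0.91 in sham, and rose by 1.11 ± 0.13 (limma adjusted p = 0.0053). Zfp598, the ligase that marks Rps10 and Rps20 on collided ribosomes, rose by 0.95, Abce1, which splits ribosomes after termination, by 0.76, and Serbp1, which binds idle ribosomes, by 0.48 (limma adjusted p = 0.0234, 0.0238 and 0.0349). Gtpbp2, which acts on stalled ribosomes, fell by 0.46 on the log2 scale (limma adjusted p = 0.0334). In the fit with scan as a block, the adjusted p was 0.0596 for Zfp598, 0.0789 for Abce1, 0.0501 for Serbp1 and 0.0731 for Gtpbp2 in limma.

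Of 7 genes of the p53 pathway linked to free ribosomal proteins, 3 rose (42.9%, against 9.01% of all probes) and 0 fell, with a median of 0.24. With scan as a block 2 rose, without Bax (adjusted p = 0.0779), and without M25 1 rose, Mdm4. Cdkn1a, the cell cycle inhibitor p21, measured 4.68, 4.63 and 4.62 in the border zone, against 3.34, 3.57 and 3.80 in sham, and rose by 1.07 ± 0.15 (limma adjusted p = 0.00846). Mdm4, a p53 inhibitor, rose by 1.39 and passed in all 6 fits with an array left out, and Bax, which permeabilises mitochondria, rose by 0.65 (limma adjusted p = 0.00542 and 0.0446). Mdm2, the ligase that free Rpl5 binds, had an estimate of 0.24 (limma adjusted p = 0.189).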

How the data were processed

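Total RNA was labelled with Cy3 and hybridised to 6 Agilent arrays, 1 per sample. Spot signals are background-subtracted intensity values that the authors deposited, made with Agilent Feature Extraction 11.0.1.1 per the submitters' processing notes. Flags (0 or 1) for control, outlier, saturated and well-above-background spots are used as deposited. The authors also deposited log2 values, used as an alternative. Their array medians are nearly equal (5.54 on M17, 5.53 on C6), by a normalization not named in the sources used here. Estimates from these values lay close to those after quantile scaling, so the authors' table and quantile scaling are not separate checks.

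Control and outlier spots were dropped, log2 of the processed signal was averaged per probe, and each array was set relative to its 75th percentile. Of 24684 probes, 24614 had a usable spot on every array, and 17930, those exceeding background throughout the border zone or throughout sham, were tested in limma 3.58.1 (lmFit, eBayes, two-sided; R 4.3.3), with Benjamini-Hochberg adjustment over all of them and a threshold of 0.05. Errors of fold changes are standard errors of that fit. A gene is represented by its brightest tested probe. Symbols come from RefSeq (GRCr8) through accessions. The script was tested on simulated data with the spread of all tested probes. It called 1 of 50 probes with a log2 change of 0.5 and 0 of 50 with -0.5. At 2 and -2 it called 40 and 36 of 50, with 2 false calls among the other probes. A gene that did not pass is therefore not shown to be unchanged. No spot was flagged as saturated, and any other loss of response at bright spots was not tested. The number of arrays limits precision.

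Members, lists and tests were chosen with earlier results of these data known. Named were the 10 members with the largest rise past the threshold, paralogue pairs, stalk proteins, the 3 highest and 3 lowest p-values, and up to 4 passing genes per list; other members were named after their values were seen. Some items are counted but not reported here by name. Alternatives were quantile, median and cyclic loess scaling, normexp (offset 50, on median foreground and background signals, since the mean foreground column was not used here), no filter, the authors' table, scan as a block, other probes of a gene, a trended prior, and leaving out each array. Python 3.11.15, numpy 2.4.6, pandas 2.3.3, scipy 1.17.1 and matplotlib 3.10.9 made the tables and figures.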

Additional observations from a re-analysis of the deposited data

How the results depend on the processing

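The median log2 fold change of the 74 ribosomal protein genes, 0.43, was positive under all 17 alternatives and ranged over 0.37 to 0.49 when 1 array was left out. It was 0.30 in the authors' table and after quantile scaling, 0.62 after median scaling, which moved the median of all probes to 0.16, 0.31 after cyclic loess (chosen after seeing the data), 0.27 with scan as a block and 0.28 with that block and M25 left out. The number that rose, 17, was far less stable: 7 in the authors' table, 6 after quantile scaling, 4 with no filter on dim probes (5.26%, against 3.21% of all 24614 probes), 9 with scan as a block, 0 with that block and M25 left out (5 at an unadjusted p below 0.05 in limma, with 0.363% of all probes called), 34 with a trended prior (chosen after seeing the data, 11.5% of all probes), and 0 to 47 with 1 array left out. Cyclic loess (13), median scaling (16) and normexp (18) stayed within 1.5 times. No member fell under any alternative in limma; at an unadjusted p below 0.05 normexp had 1 with a negative estimate. Estimates of Rplp1, Rplp2, Rpl29, Rpl7a, Rps29, Rpl23 and Rpl27 are small, and each turns sign under at least 1 scaling. Changes of sign were not confined to these genes. After normexp Rpl27a went from 0.78 to -0.36 and Rpl28 from 0.28 to -0.06, and after cyclic loess Rpl36a went from -0.16 to 0.30. Rpl22l1 minus Rpl22 changed by -0.03 to 0.13 and Rps4y2 minus Rps4x by 0.15 to 0.38 under other scalings, chosen after seeing the data. For the lists, leaving out 1 array gave 0 to 9 rises among elongation factors and other TOP mRNAs, 1 to 12 among initiation factors, 0 to 3 in mTOR control, 0 to 4 among chaperones, 0 to 5 in rescue and 1 to 3 in the p53 list, and falls of 0 to 2. The other alternatives gave 0 to 7, 0 to 11, 0 to 3, 0 to 3, 0 to 4 and 0 to 3 rises and falls of 0 or 1. Of all probes, 1.6% to 20.8% rose with 1 array left out, and 0.363% to 11.5% under the other alternatives. Fits with fewer arrays have fewer degrees of freedom; otherwise the cause was not tested. With 3 arrays a group, C5 and C6 dim, M25 possibly not separate and scan shared by C4 and the border zone only, the calls are less certain than the direction of the median. No paired analysis was possible because the groups share no replicate numbers.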
